A study of Mus musculus with 18 samples.

Results

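The ATF4 branch of the integrated stress response was followed in RNA-seq libraries of the mouse retinal pigment epithelium (RPE) through 10 genes: *Trib3*, *Gdf15*, *Atf4*, *Atf5*, *Ddit3*, *Ddit4*, *Asns*, *Chac1*, *Sesn2* and *Ppp1r15a*. The genes were selected by symbol from the 52636 genes of the count table, with their normalized counts (CPM, counts scaled to the size of each library) in all 18 libraries in view. All 10 were found, and all 10 passed the filter on low counts in every comparison. Their levels and fold changes are therefore given as a description. Calls that use an adjusted *P* are counted for them beside the share of all genes called, and no *P*-value is printed for them. The libraries came from C57BL/6 mice at postnatal day 14 and fell into 6 groups of 3. Uninjected eyes received no vector. The other 5 groups received AAV8 vectors in which the *Best1* promoter, active in the RPE, drove GFP, the nuclear active form of SREBP2 (nSREBP2), a control hairpin against LacZ (ctrl sh), or 1 of 2 hairpins against *Lrp2* (sh1 and sh2). GFP was the control for nSREBP2, and ctrl sh was the control for both *Lrp2* hairpins. By the methods of the paper, each hairpin vector carried mCherry, a red fluorescent protein, together with its hairpin in place of GFP. The vectors were given on the day of birth, so that every injected eye also carried the virus and the injury of the needle. Both eyes of a mouse were pooled into 1 library, and RPE cells were loosened from the eyecup with papain after the retina and the optic nerve had been removed.

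The integrated stress response begins with kinases that phosphorylate the translation factor eIF2 when amino acids are short, proteins misfold, viral RNA is sensed or mitochondria fail. Most translation then slows, but the mRNA of the transcription factor ATF4 is translated more, and ATF4 switches on genes for amino acid supply, for tRNA charging and for the control of growth and survival. ATF4 protein can thus rise without a rise of *Atf4* mRNA, and its targets are the usual readout in RNA. In the RPE, a tissue of high protein traffic and high oxidative load, this response is known from mitochondrial and protein folding stress. Among the 10 genes, *Atf4*, *Atf5* and *Ddit3* (CHOP) encode transcription factors. *Trib3* encodes a pseudokinase that restrains AKT and ATF4 itself, *Chac1* an enzyme that degrades glutathione, and *Asns* asparagine synthetase. *Sesn2* and *Ddit4* encode inhibitors of mTORC1, *Gdf15* a secreted stress cytokine, and *Ppp1r15a* (GADD34) the phosphatase subunit that reverses the phosphorylation of eIF2. Several have other known inputs. *Gdf15* and *Sesn2* are also p53 targets, *Ddit4* is also a glucocorticoid target, and *Ppp1r15a* also responds fast to the handling of tissue.

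In GENCODE M21 (GRCm38), *Trib3* lies on the minus strand of chromosome 2 from 152337422 to 152344032, and *Chac1* lies on the plus strand of the same chromosome from 119351229 to 119354381. *Asns* spans 7675169 to 7693254 on the minus strand of chromosome 6, *Sesn2* 132492032 to 132510501 on the minus strand of chromosome 4, and *Gdf15* 70629393 to 70632456 on the minus strand of chromosome 8. *Ppp1r15a* spans 45522916 to 45526268 on the minus strand of chromosome 7. RefSeq promoters of all 10 genes (12 promoters, GRCm38.p6) were read for the 250 bases before the start site. The element bound by ATF4 with a C/EBP partner was searched as TGATGNAA and the cAMP response element as TGACGTCA, on both strands, with no overlap between the matches found. The former was held by 2 of the 10 genes (*Asns* and *Chac1*) and by 3.45% of the 32851 promoters of this length. The latter was held by *Ppp1r15a* alone among the 10 and by 1.55% of all promoters. A match is a run of letters and not a measured binding site. The matches are shown in capitals below, on the strand of the gene, with the promoter of *Trib3*, the gene of largest fold change, in which neither run was found. The *Asns* match lies within an exon of GENCODE M21, and a 30-base stretch around it is shown. The other stretches lie outside annotated exons.
*Asns*, chr6:7693214-7693243, minus strand: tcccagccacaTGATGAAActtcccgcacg
*Chac1*, chr2:119350992-119351228, plus strand: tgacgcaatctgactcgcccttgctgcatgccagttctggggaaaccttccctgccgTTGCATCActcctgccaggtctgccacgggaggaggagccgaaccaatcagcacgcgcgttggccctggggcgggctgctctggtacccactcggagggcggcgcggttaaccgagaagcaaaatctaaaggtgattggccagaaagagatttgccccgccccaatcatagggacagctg
*Ppp1r15a*, chr7:45526269-45526329, minus strand: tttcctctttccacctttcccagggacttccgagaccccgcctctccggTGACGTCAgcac
*Trib3*, chr2:152344061-152344310, minus strand: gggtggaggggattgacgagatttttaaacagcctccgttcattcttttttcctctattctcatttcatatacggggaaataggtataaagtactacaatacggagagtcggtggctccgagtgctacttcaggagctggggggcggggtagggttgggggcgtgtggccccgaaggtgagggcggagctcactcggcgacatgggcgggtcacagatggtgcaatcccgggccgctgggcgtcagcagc

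Depth was 8921885 to 13696934 counts per library. *Lrp2* was at 87.7 to 166 CPM with ctrl sh, at 29.7 to 42.8 CPM with sh1 and at 34.6 to 43.6 CPM with sh2. It was also low with nSREBP2, at 25.1 to 37.7 CPM, against 87.9 to 176 CPM with GFP. In uninjected libraries it was at 55.9 to 150 CPM. *Srebf2*, the gene of SREBP2, was at 83.5 to 113 CPM with GFP and at 208 to 233 CPM with nSREBP2. The summed level of 10 RPE markers ranged from 2600 to 7687 CPM in uninjected, 539 to 698 CPM in GFP, 395 to 596 CPM in nSREBP2, 1890 to 3791 CPM in ctrl sh, 1488 to 2308 CPM in sh1 and 691 to 1138 CPM in sh2 libraries. All 10 were detected in every group, but *Rpe65*, the isomerase of the visual cycle, was at 375 to 1129 CPM in uninjected and at 1.06 to 2.31 CPM in GFP libraries, and *Rgr*, an opsin of the RPE, was at 624 to 2135 CPM and at 11.4 to 27.4 CPM. Every GFP library also lay below all uninjected ones for *Best1*, *Rlbp1*, *Rdh5*, *Ttr* and *Lrat*. *Ttr*, for example, was at 786 to 2147 CPM in uninjected and 40.6 to 72.7 CPM in GFP. Only the remaining RPE markers overlapped between these groups. *Otx2* was at 56.5 to 163 CPM in uninjected and 69.9 to 114 CPM in GFP. *Mitf* was at 137 to 246 CPM and 168 to 215 CPM, and *Krt18* at 43.9 to 137 CPM and 93.7 to 148 CPM. In these bulk samples fewer RPE cells and less RNA per cell cannot be told apart. All 12 rod markers were detected, and their sum reached 331 CPM in GFP replicate 3, 440 CPM in sh2 replicate 1 and 262 to 366 CPM in nSREBP2, against 38.1 to 52.5 CPM in uninjected libraries. Fibroblast markers summed to 18501 to 30272 CPM in uninjected, 34499 to 43774 CPM in GFP, 71237 to 85271 CPM in nSREBP2, 32786 to 46711 CPM in ctrl sh, 44229 to 53403 CPM in sh1 and 42024 to 50618 CPM in sh2, so that every injected library lay above the uninjected ones. Endothelial markers were lower in nSREBP2 (1093 to 1137 CPM) than in GFP (1385 to 1793 CPM), and lower in sh2 (991 to 1053 CPM) than in ctrl sh (1507 to 1619 CPM). Macrophage markers were higher in nSREBP2 (448 to 467 CPM) than in GFP (248 to 282 CPM). Over all libraries the sums ranged from 3088 to 5121 CPM (melanocyte), 610 to 1329 CPM (other retina), 350 to 872 CPM (blood) and 11.1 to 51.8 CPM (muscle). By Y-linked genes and *Xist*, all nSREBP2 libraries were from males and all GFP libraries from females, and the other males were uninjected replicate 3 and sh2 replicates 2 and 3. The part of these differences in the results on the 10 genes was not tested, apart from a fit that held sex constant.

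**Figure D1:**
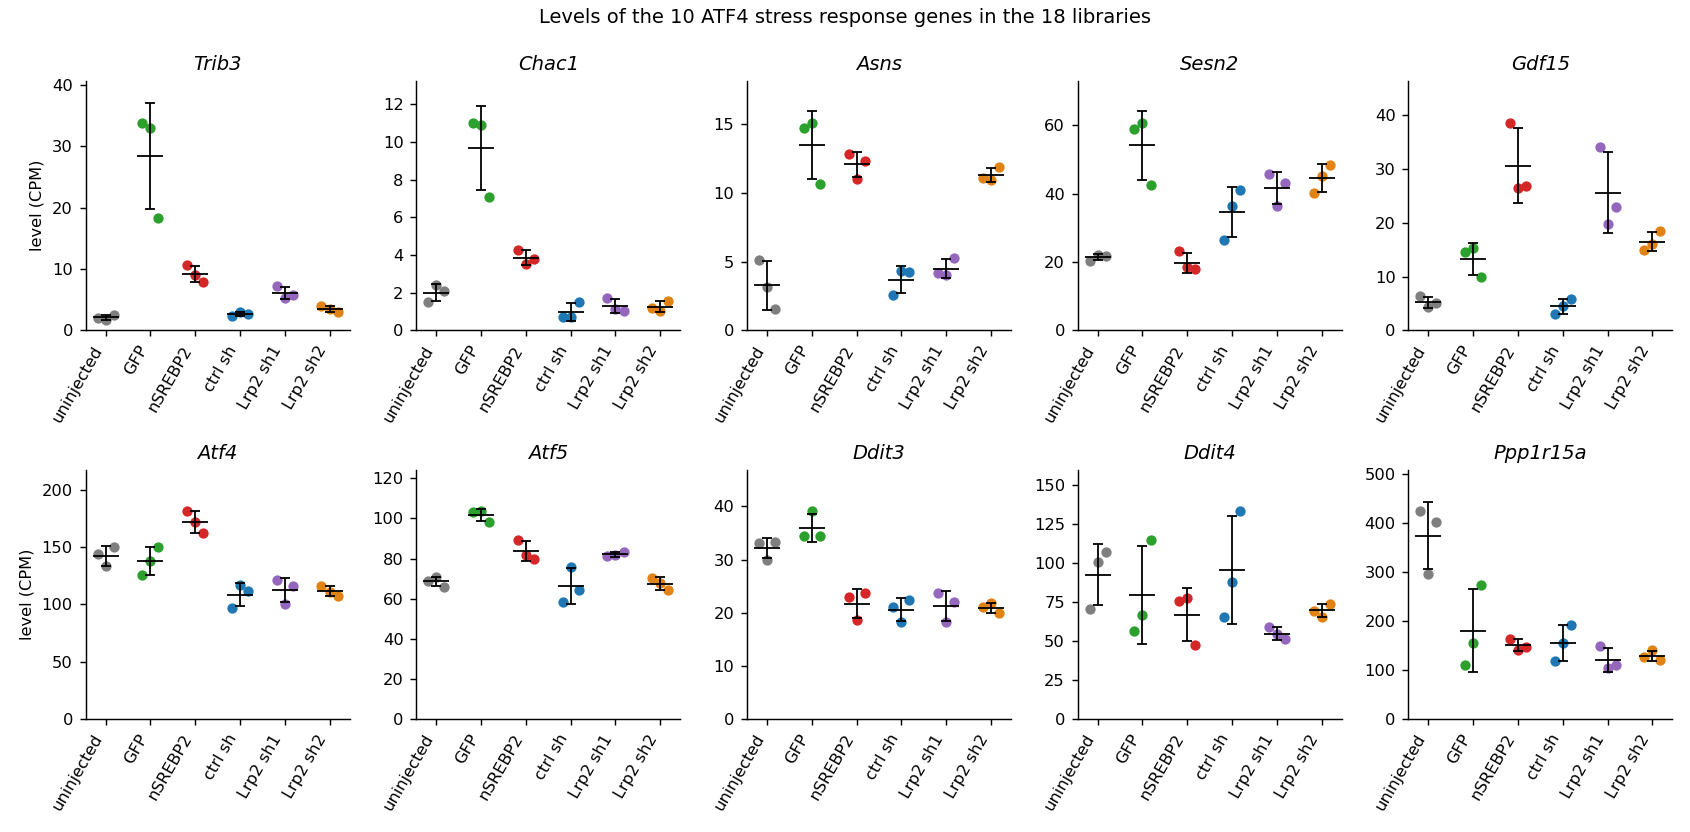
Level of each gene (CPM with TMM factors, linear axes from 0) in the 3 libraries of each group (points), with the mean and the SD (black). By group mean, *Trib3*, *Chac1*, *Sesn2*, *Asns*, *Atf5* and *Ddit3* are highest in GFP. *Gdf15* (26.4 to 38.6 CPM) and *Atf4* are highest in nSREBP2. *Asns* in GFP overlaps nSREBP2 and sh2. *Sesn2* in GFP overlaps both *Lrp2* hairpins, and *Gdf15* in nSREBP2 overlaps sh1. *Ppp1r15a* in every uninjected library (297 to 424 CPM) lies above all injected ones.

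*Trib3* was at 2.04, 1.74 and 2.51 CPM in the uninjected libraries and at 33.8, 33.0 and 18.4 CPM in the GFP libraries. It was at 10.6, 9.02 and 7.90 CPM with nSREBP2, and at 2.37, 3.04 and 2.61 CPM with ctrl sh. With the *Lrp2* hairpins it was at 7.27, 5.28 and 5.68 CPM (sh1) and at 3.90, 3.53 and 2.91 CPM (sh2). The GFP libraries thus stood above all others, with GFP replicate 3 the lowest of the 3, and nSREBP2 libraries stood between GFP and the rest. The gene was 13.4-fold higher in GFP than in uninjected libraries, with a log2 fold change (log2FC) of 3.74 ± 0.29 (SE). It was 3.07-fold lower in nSREBP2 than in GFP (log2FC -1.62 ± 0.23), although nSREBP2 was 4.35-fold above uninjected (log2FC 2.12 ± 0.23). With sh1 it was 2.27-fold above ctrl sh (log2FC 1.18 ± 0.20) with no overlap, whereas sh2 overlapped ctrl sh (log2FC 0.38 ± 0.22). In sh2 it was 1.75-fold lower than in sh1 (log2FC -0.81 ± 0.20), and these groups did not overlap.

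*Chac1* had the lowest CPM of the 10 genes in the mean of the uninjected libraries, without regard to length. It was at 1.53, 2.42 and 2.07 CPM in uninjected and at 11.03, 10.9 and 7.08 CPM in GFP libraries, where GFP replicate 3 was again the lowest. In nSREBP2 it was at 4.28, 3.50 and 3.81 CPM, between these groups without overlapping either. In the hairpin libraries it was near 1 CPM, at 0.719, 0.702 and 1.52 CPM with ctrl sh, at 1.74, 1.16 and 1.02 CPM with sh1 and at 1.19, 1.01 and 1.58 CPM with sh2. These are 9 to 22 counts per library, so that their ranges overlap and small differences are not detectable at this depth. *Chac1* was 4.73-fold higher in GFP than in uninjected (log2FC 2.24 ± 0.26) and 2.48-fold lower in nSREBP2 than in GFP (log2FC -1.31 ± 0.22). The ctrl sh libraries all lay below the uninjected ones (log2FC -1.05 ± 0.38).

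*Asns* split the groups in another way. It was at 5.10, 3.19 and 1.53 CPM in uninjected and at 14.7, 15.1 and 10.6 CPM in GFP libraries. It was about as high in nSREBP2, at 12.8, 11.03 and 12.3 CPM. With ctrl sh it was at 2.59, 4.29 and 4.22 CPM and with sh1 at 4.19, 4.05 and 5.26 CPM, but with sh2 it was at 11.1, 10.9 and 11.9 CPM. GFP, nSREBP2 and sh2 therefore formed a high class that did not overlap the other 3 groups. *Asns* was 4.04-fold higher in GFP than in uninjected (log2FC 2.01 ± 0.33) and 3.08-fold higher in sh2 than in ctrl sh (log2FC 1.63 ± 0.20). The difference of nSREBP2 from GFP was a log2FC of -0.15 ± 0.15, with overlap. Between the hairpins, sh2 was 2.52-fold above sh1 (log2FC 1.34 ± 0.15), while sh1 overlapped ctrl sh (log2FC 0.28 ± 0.23).

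*Sesn2*, a leucine sensor that holds back mTORC1, was at 20.3, 22.1 and 21.8 CPM in uninjected and at 59.0, 60.7 and 42.5 CPM in GFP libraries. In nSREBP2 it was at 23.2, 18.5 and 17.8 CPM, which overlapped the uninjected libraries. It was at 26.5, 36.2 and 41.0 CPM with ctrl sh, at 45.6, 36.5 and 43.0 CPM with sh1 and at 40.3, 45.2 and 48.2 CPM with sh2. All hairpin libraries thus lay above the uninjected ones, and those of the *Lrp2* hairpins overlapped ctrl sh. *Sesn2* was 2.5-fold higher in GFP than in uninjected (log2FC 1.32 ± 0.14) and 2.72-fold lower in nSREBP2 than in GFP (log2FC -1.44 ± 0.15). In nSREBP2 against uninjected libraries its log2FC was -0.12 ± 0.13. *Ddit4* encodes the other inhibitor of mTORC1. It was at 70.3, 100.5 and 107 CPM in uninjected, at 56.2, 66.9 and 115 CPM in GFP, and at 75.8, 77.4 and 47.4 CPM in nSREBP2 libraries, all overlapping. With ctrl sh it was at 65.5, 88.0 and 133 CPM, above the 58.7, 54.6 and 51.0 CPM of sh1 (log2FC -0.80 ± 0.21). With sh2 it was at 69.3, 65.5 and 73.9 CPM, which overlapped ctrl sh (log2FC -0.45 ± 0.21).

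*Gdf15* was the gene that stood above its control in nSREBP2 and with both *Lrp2* hairpins. It was at 6.32, 4.25 and 5.02 CPM in uninjected, at 14.6, 15.2 and 9.94 CPM in GFP, and at 38.6, 26.4 and 26.8 CPM in nSREBP2 libraries, with no overlap among these 3 groups. It was at 2.95, 4.45 and 5.90 CPM with ctrl sh, at 34.0, 19.7 and 23.0 CPM with sh1 and at 14.97, 16.1 and 18.5 CPM with sh2. The ctrl sh and uninjected libraries overlapped, and every other injected library was above them. The fold was 2.52 in GFP against uninjected (log2FC 1.33 ± 0.22), 2.32 in nSREBP2 against GFP (log2FC 1.22 ± 0.19), 5.81 in sh1 against ctrl sh (log2FC 2.54 ± 0.26) and 3.77 in sh2 against ctrl sh (log2FC 1.91 ± 0.22). Both hairpins share the ctrl sh libraries. In sh2 the gene was lower than in sh1 (log2FC -0.63 ± 0.18).

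*Atf4* itself varied little. It was at 144, 133 and 150.3 CPM in uninjected and at 125, 138 and 150.3 CPM in GFP libraries, which overlapped (log2FC -0.06 ± 0.09). It was at 181, 172 and 162 CPM in nSREBP2, above all GFP libraries (log2FC 0.32 ± 0.08). The hairpin groups were lower and overlapped each other, at 97.2, 117 and 112 CPM with ctrl sh, at 121, 101 and 116 CPM with sh1, and at 116, 111 and 107 CPM with sh2. The ctrl sh libraries all lay below the uninjected ones (log2FC -0.40 ± 0.09), and the log2FC of each *Lrp2* hairpin against ctrl sh was 0.05 (SE 0.09 for sh1 and 0.08 for sh2). The protein was not measured in these libraries.

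*Atf5*, which like *Atf4* is known for control at translation, was at 68.9, 70.8 and 66.0 CPM in uninjected and at 103, 104 and 98.3 CPM in GFP libraries. The difference of 1.47-fold was small beside those above (log2FC 0.56 ± 0.07), with no overlap. It was at 89.2, 81.7 and 80.0 CPM in nSREBP2, below GFP (log2FC -0.28 ± 0.07) and above uninjected. With ctrl sh it was at 58.3, 75.8 and 64.4 CPM, with sh1 at 81.1, 82.0 and 83.5 CPM and with sh2 at 70.3, 68.0 and 64.1 CPM, so that sh1 alone stood above ctrl sh (log2FC 0.31 ± 0.09). *Ddit3* fell into a high and a low class. It was at 33.0, 29.97 and 33.4 CPM in uninjected and at 34.4, 39.1 and 34.4 CPM in GFP libraries. In all the other libraries it was lower, at 22.9, 18.6 and 23.7 CPM in nSREBP2, 21.1, 18.2 and 22.4 CPM in ctrl sh, 23.6, 18.2 and 21.97 CPM in sh1 and 21.03, 21.8 and 19.9 CPM in sh2. Its log2FC was -0.72 ± 0.11 in nSREBP2 against GFP and -0.65 ± 0.11 in ctrl sh against uninjected. Exons of *Ddit3* overlap those of *Mars* on the opposite strand by 68 bases, and exons of *Atf5* overlap those of *Nup62* and *Il4i1* by 82 bases each. Since it is not given whether strand was used in counting, these counts may hold reads of the neighbours.

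*Ppp1r15a* went the other way from the targets above. It was at 424, 297 and 403 CPM in uninjected libraries, above every injected library. In GFP it was at 111, 155 and 275 CPM, with GFP replicate 3 the highest. It was at 164, 140.03 and 148 CPM in nSREBP2, at 119, 156 and 192 CPM in ctrl sh, at 149, 104 and 109.9 CPM in sh1 and at 126, 141 and 120.2 CPM in sh2. It was 2.10-fold lower in GFP (log2FC -1.07 ± 0.29) and 2.42-fold lower in ctrl sh (log2FC -1.28 ± 0.19) than in uninjected libraries. Nuclear immediate early genes, which rise within minutes of tissue handling, moved beside it: the summed level of 12 such genes was 8936, 7236 and 8597 CPM in uninjected, 3073, 4169 and 5646 CPM in GFP and 3529, 4943 and 5620 CPM in ctrl sh libraries. The library order of this sum and of *Ppp1r15a* was the same within GFP and within ctrl sh. The part of handling in the level of *Ppp1r15a* was not tested.

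Per kilobase of exon, *Ppp1r15a* was the most abundant of the 10 in uninjected libraries, with a mean of 128 CPM per kilobase, followed by *Atf4* (60.5), *Ddit4* (52.7), *Atf5* (34.4) and *Ddit3* (18.8). *Sesn2* was at 6.16, *Gdf15* at 2.81, *Chac1* at 1.23, *Asns* at 1.197 and *Trib3* at 0.987 CPM per kilobase. The 5 genes called higher in GFP, beside 0.219% of all genes, had the 5 lowest levels per kilobase in uninjected libraries. *Ppp1r15a*, of highest level, was lower in GFP. The uninjected level is also the base of these fold changes, so nothing is read from this order. In GFP, *Trib3* reached 13.4 CPM per kilobase and approached *Sesn2* (15.6) and *Ddit3* (20.99).

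**Figure D2:**
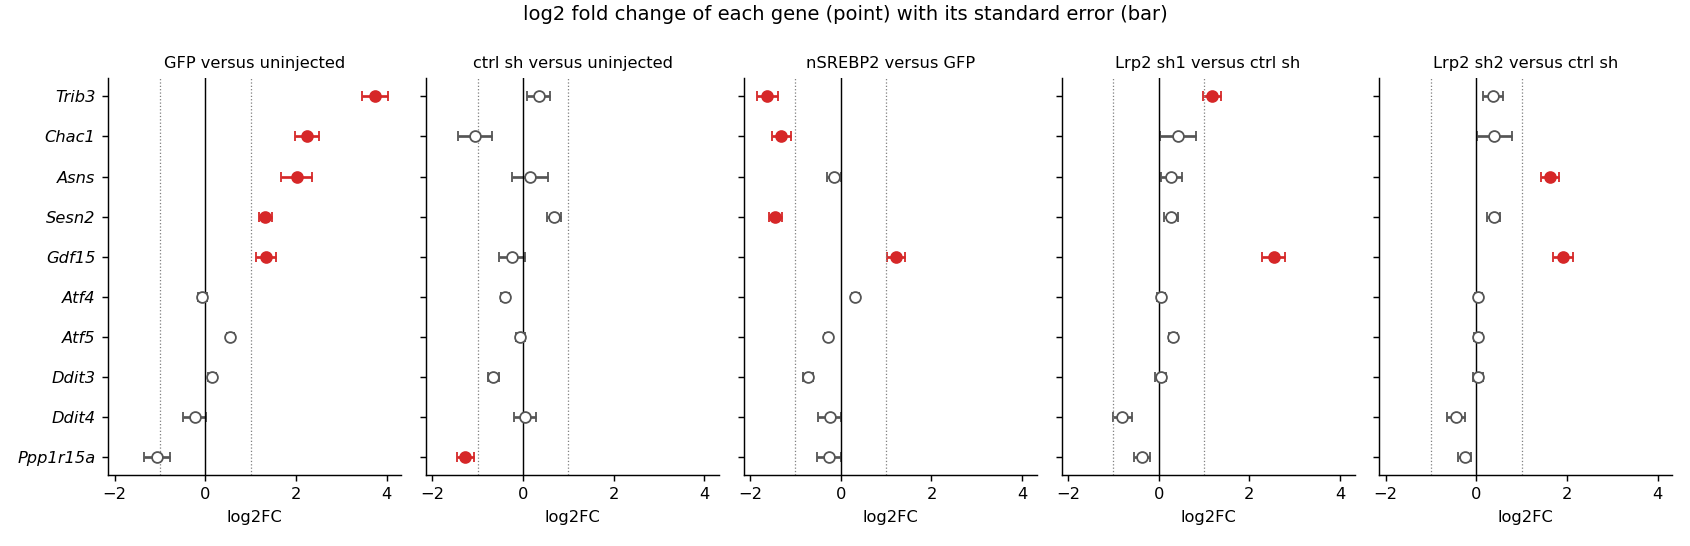
log2FC (points) with SE (bars) of each gene in 5 comparisons. Red marks the genes past both limits of a call, an adjusted *P* of 0.05 and a log2FC of 1 in either direction (dotted lines). GFP versus uninjected has 5 red genes, all higher, and ctrl sh versus uninjected has 1, *Ppp1r15a*, lower.

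GFP versus uninjected, which shows what differs in the control eyes of nSREBP2, held the largest single fold change of the 10 genes among the 10 comparisons fitted, that of *Trib3*. A gene was called when its adjusted *P* was below 0.05 and its log2FC was beyond 1 in either direction. Of the 10 genes, 5 were called higher (*Trib3*, *Chac1*, *Asns*, *Gdf15* and *Sesn2*) and 0 lower, beside 0.219% of the 17837 genes tested called higher. The libraries did not overlap for 8 of the 10, beside 25.6% of all genes. The median log2FC was 0.94 over the 10 genes and -0.0035 over all genes. Since the choice of the genes used these libraries, nothing is read from these counts or from those of the 10 genes in the comparisons that follow. *Trib3*, *Chac1* and *Sesn2* were called in each of the 6 fits that left out 1 library. *Asns* was not called without uninjected replicate 2, GFP replicate 1 or GFP replicate 2, and *Gdf15* was not called without these or without uninjected replicate 3.

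Other genes known to depend on ATF4 were counted from lists. The lists here and below were also chosen with earlier results of these data known, so their counts describe these libraries and are no independent support. The counts used the adjusted *P* over all genes alone, which 0.662% of all genes passed higher and 1.82% lower in GFP versus uninjected. Of 12 cytosolic tRNA synthetases, which charge tRNAs with amino acids, 6 passed higher and 0 lower, and all 12 had a log2FC above 0. *Sars*, the seryl-tRNA synthetase, rose from 57.1 ± 6.2 to 108 ± 9.9 CPM (SD, n = 3), with a log2FC of 0.90 ± 0.10 (adjusted *P* = 0.00537, edgeR). *Aars*, the alanyl-tRNA synthetase, rose from 81.8 ± 4.3 to 151 ± 11 CPM (log2FC 0.87 ± 0.08, adjusted *P* = 0.00276), and *Gars*, the glycyl-tRNA synthetase, from 46.4 ± 1.9 to 72.9 ± 6.8 CPM (log2FC 0.64 ± 0.09, adjusted *P* = 0.0118). Of 12 genes of serine, glycine, one-carbon, proline and cysteine synthesis, 2 passed higher and 0 lower. They were *Cth*, which makes cysteine (log2FC 1.63 ± 0.28, adjusted *P* = 0.0221), and *Mthfd2*, of mitochondrial one-carbon metabolism (log2FC 1.22 ± 0.18, adjusted *P* = 0.0133). Of 9 amino acid transporters, 3 passed higher and 0 lower: *Slc1a4* (log2FC 0.84 ± 0.17), *Slc1a5* (log2FC 0.41 ± 0.08) and *Slc7a1* (log2FC 0.40 ± 0.08). Of 8 mitochondrial chaperones and proteases, 2 passed higher, the protease *Lonp1* (log2FC 0.94 ± 0.11, adjusted *P* = 0.00516) and the chaperone *Hspa9* (log2FC 0.92 ± 0.11, adjusted *P* = 0.00656). Leaving out 1 library left 2 to 5 tRNA synthetases higher (2 without uninjected replicate 3 or GFP replicate 2, 3 without uninjected replicate 2 or GFP replicate 1), and kept *Sars*, *Aars*, *Lonp1* and *Hspa9* past the threshold in all 6 fits. The highest adjusted *P* without 1 library was 0.0939 for *Cth* (without GFP replicate 1), 0.0721 for *Mthfd2* and *Gars*, 0.162 for *Slc1a4* and *Slc1a5* and 0.148 for *Slc7a1* (all without GFP replicate 2).

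The remaining lists differed in how many genes passed the threshold. Of 11 other ATF4 targets tested, 0 passed higher and 1 passed lower, *Atf3*, a transcription factor that is also an immediate early gene (log2FC -1.17 ± 0.20, adjusted *P* = 0.0209, and 0.104 without GFP replicate 2). Of 15 genes of the eIF2 kinases and the eIF2 machinery, 0 passed in either direction by edgeR or by DESeq2, and 5 had an unadjusted *P* below 0.05 by edgeR. Of 21 genes of the ATF6 and XBP1 branches of the unfolded protein response, which serve the endoplasmic reticulum, 1 passed higher, *Sel1l* (log2FC 0.40 ± 0.07, adjusted *P* = 0.0249, and 0.150 without GFP replicate 2). *Hspa5*, the main chaperone of that compartment, had a log2FC of -0.38 ± 0.11 and did not pass (adjusted *P* = 0.123). Of 14 p53 targets, 7 passed higher and 1 lower. The latter was *Btg2* (log2FC -1.10 ± 0.22), which is also in the list of immediate early genes and is counted in both. Those higher included the cyclin gene *Ccng1* (log2FC 1.23 ± 0.11, adjusted *P* = 0.00226), the nuclease gene *Aen* (log2FC 1.11 ± 0.14, adjusted *P* = 0.00776) and *Cdkn1a*, the cell cycle inhibitor p21 (log2FC 1.01 ± 0.15, adjusted *P* = 0.0131, and 0.0721 without GFP replicate 2). *Gdf15* and *Sesn2* are known targets of p53 as well as of ATF4, and the share of each input was not tested. Of 12 immediate early genes, 5 passed lower and 0 higher, among them *Fosb* (log2FC -0.99 ± 0.16, adjusted *P* = 0.0173, and 0.0849 without GFP replicate 2). Of 8 glucocorticoid targets, 0 passed by edgeR (2 at an unadjusted *P* below 0.05) and 1 passed lower by DESeq2. Without GFP replicate 1 or GFP replicate 2, 0 immediate early genes passed, and without GFP replicate 3 10 passed lower. The p53 targets that passed higher numbered 2 to 7 when 1 library was left out (2 without GFP replicate 2, 3 without GFP replicate 1, 4 without uninjected replicate 2 or 3). Of the 10 RPE markers 6 passed lower and 0 higher in GFP versus uninjected, and of 11 rod markers tested 1 passed higher and 0 lower. Their part in the changes above was not tested.

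**Figure D3:**
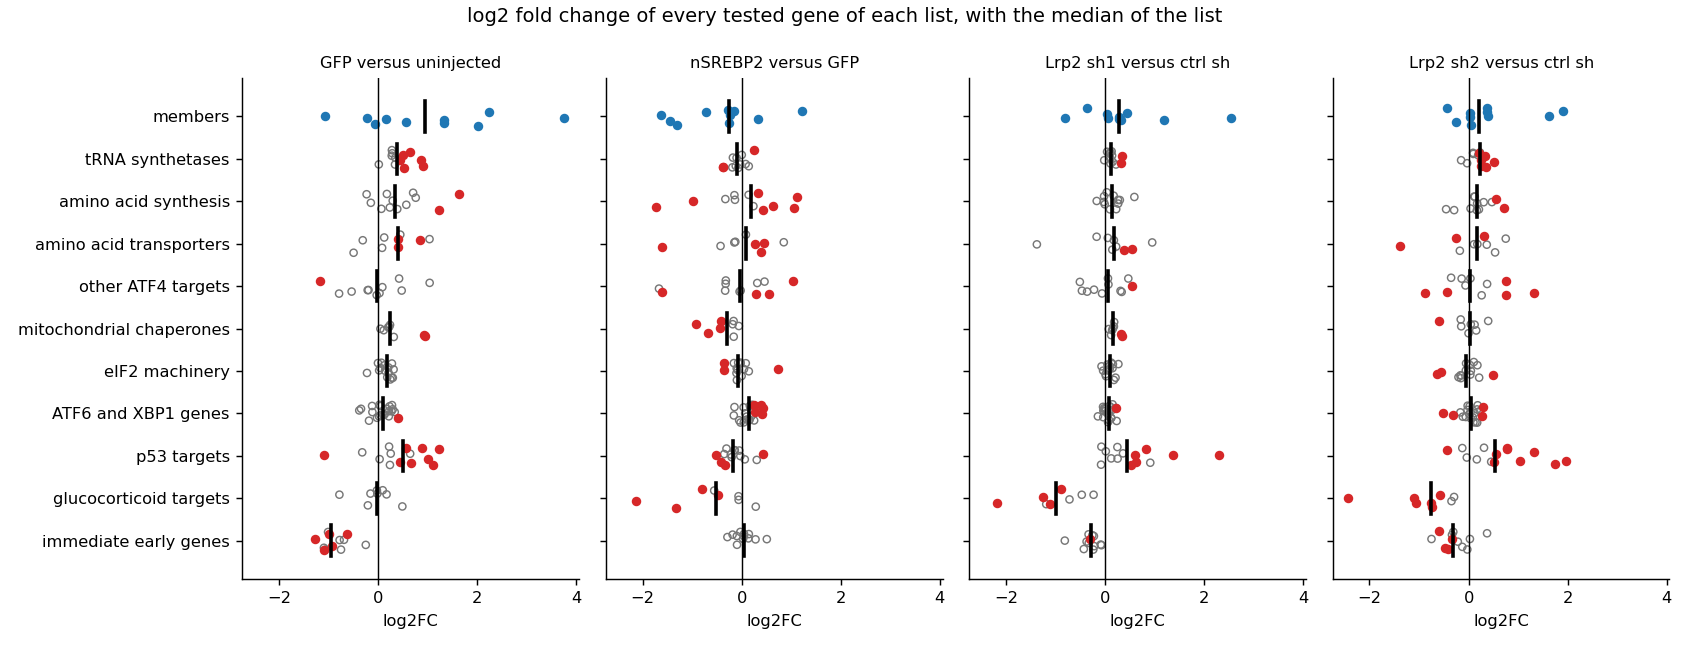
log2FC of every tested gene (points) of each list in 4 comparisons, with the median of the list (black bars). The 10 chosen genes are blue. In the other lists, red marks an adjusted *P* under 0.05 over all genes. In GFP versus uninjected all 12 tRNA synthetases lie above 0, and in nSREBP2 versus GFP all 8 mitochondrial chaperones and proteases lie below 0.

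The control hairpin libraries differed from the uninjected ones by a median log2FC of -0.15 over the 10 genes and -0.0038 over all genes. The log2FC of the 10 genes went both ways, from -1.28 (*Ppp1r15a*) to 0.68 (*Sesn2*). Over all genes 426 were called here and 251 in GFP versus uninjected. In ctrl sh versus uninjected 0 of the 10 genes were called higher and 1 lower (*Ppp1r15a*), beside 1.51% of all genes called lower, and *Ppp1r15a* was not called without ctrl sh replicate 2. The adjusted *P* alone was passed higher by 3.13% and lower by 3.37% of all genes. Of the 12 tRNA synthetases, 3 passed higher and 0 lower, led by *Aars* (log2FC 0.52 ± 0.07, adjusted *P* = 0.00766). Of the 12 immediate early genes 8 passed lower and 0 higher, among them *Nr4a1* (log2FC -1.20 ± 0.20, adjusted *P* = 0.0147, and 0.0780 without ctrl sh replicate 2). *Atf3* was again lower (log2FC -1.41 ± 0.13, adjusted *P* = 0.00279). Of the p53 targets 3 passed higher and 2 lower, among the latter *Btg2*, again counted in both lists. Of the ATF6 and XBP1 genes 5 passed higher and 0 lower. Other lists had 1 gene higher and 0 lower (amino acid synthesis), 0 higher and 1 lower (transporters), 0 higher and 2 lower (other ATF4 targets), 1 higher and 0 lower (eIF2 machinery), and 0 in either direction by edgeR for the mitochondrial chaperones (2 at an unadjusted *P* below 0.05, 0 by DESeq2) and the glucocorticoid targets (1 at an unadjusted *P* below 0.05, 1 by DESeq2). Without ctrl sh replicate 2, 0 immediate early genes and 0 ATF6 and XBP1 genes passed, and without ctrl sh replicate 3 or uninjected replicate 3, 3 immediate early genes passed lower. The 2 control vectors were also set against each other, a comparison chosen after the values had been seen. In ctrl sh versus GFP 4 of the 10 genes were called lower (*Trib3*, *Chac1*, *Asns* and *Gdf15*) and 0 higher, beside 0.117% of all 18018 genes tested called lower. Both groups carried a virus with a fluorescent protein, and the vectors differed in their cargo, GFP against mCherry with a hairpin. Cargo and any other difference between the 2 groups cannot be told apart here.

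In nSREBP2 versus GFP, which asks what active SREBP2 does in the RPE, 3 of the 10 genes were called lower (*Trib3*, *Chac1* and *Sesn2*) and 1 higher (*Gdf15*), beside 1.96% and 4.71% of the 17927 genes tested. The libraries did not overlap for 7 of the 10, beside 38.2% of all genes, and the median log2FC was -0.27 over the 10 and -0.02 over all genes. All 4 remained called in each fit that left out 1 library. When all 18 libraries were fitted together and sex was held constant, *Trib3* and *Sesn2* were called and *Gdf15* and *Chac1* were not. Within these groups sex and vector cannot be told apart. The sex term came from the uninjected and sh2 libraries, the only groups of both sexes. GFP was itself the group with the highest mean of *Trib3*, *Chac1* and *Sesn2*, so the nSREBP2 libraries were also set against the uninjected ones. There *Trib3*, *Gdf15* and *Asns* were called higher and *Ppp1r15a* lower, beside 5.27% of all genes higher and 5.29% lower. *Sesn2* overlapped the uninjected libraries, and *Chac1* lay above them with a log2FC of 0.93 ± 0.26.

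By the adjusted *P* alone, 12.6% of all genes passed higher and 8.47% lower in nSREBP2 versus GFP, and the lists parted. All 8 mitochondrial chaperones and proteases had a log2FC below 0, and 4 passed lower, among them *Lonp1* (log2FC -0.92 ± 0.10, adjusted *P* = 0.000156) and *Hspa9* (log2FC -0.68 ± 0.10, adjusted *P* = 0.000887). *Lonp1* went from 96.5 ± 12.4 CPM in GFP to 50.8 ± 2.3 CPM in nSREBP2 (SD, n = 3), close to the 49.8 ± 3.5 CPM of the uninjected libraries. Of the tRNA synthetases 1 passed higher and 2 lower, and the latter were *Aars* (log2FC -0.38 ± 0.07, adjusted *P* = 0.00392) and *Sars* (log2FC -0.37 ± 0.09, adjusted *P* = 0.0135, and 0.0538 without GFP replicate 2). Of the amino acid synthesis genes 5 passed higher and 2 lower. The proline genes *Pycr1* (log2FC 1.06 ± 0.13, adjusted *P* = 0.000481) and *Aldh18a1* (log2FC 0.63 ± 0.07, adjusted *P* = 0.000172) and the folate enzyme *Aldh1l2* (log2FC 1.12 ± 0.12, adjusted *P* = 0.000200) were higher. *Phgdh*, the first enzyme of serine synthesis, was lower (log2FC -0.98 ± 0.14, adjusted *P* = 0.00105), as was *Cth* (log2FC -1.72 ± 0.39, adjusted *P* = 0.0114, and 0.0595 with sex held constant). Of the transporters 3 passed higher and 1 lower, the glycine transporter *Slc6a9* (log2FC -1.62 ± 0.17, adjusted *P* = 0.000198).

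Of the 12 other ATF4 targets tested in nSREBP2 versus GFP, 3 passed higher, led by the stress gene *Nupr1* (log2FC 1.04 ± 0.09, adjusted *P* = 4.93e-05), and 1 passed lower, the lipoprotein receptor gene *Vldlr* (log2FC -1.61 ± 0.13, adjusted *P* = 3.88e-05). Of the eIF2 genes 1 passed higher and 2 lower. The former was *Eif2ak3*, the kinase PERK of the endoplasmic reticulum (log2FC 0.74 ± 0.08, adjusted *P* = 0.000225). Of the 21 ATF6 and XBP1 genes 5 passed higher and 0 lower, including *Xbp1* (log2FC 0.40 ± 0.07, adjusted *P* = 0.00214) and *Edem1*, of the degradation of misfolded proteins (log2FC 0.40 ± 0.07, adjusted *P* = 0.00344). Of the p53 targets 1 passed higher and 3 lower. Of the glucocorticoid targets 4 passed lower and 0 higher, with the kinase gene *Sgk1* at a log2FC of -1.33 ± 0.11 (adjusted *P* = 4.93e-05). Of the 12 immediate early genes 0 passed by edgeR or DESeq2 (1 at an unadjusted *P* below 0.05 by edgeR), and 3 passed higher without GFP replicate 3. With sex held constant, by a term that came from the uninjected and sh2 libraries, 18 of the 32 genes named by rule in these lists passed. The counts were then 5 higher and 1 lower for amino acid synthesis, 1 and 1 for transporters, 0 and 3 for tRNA synthetases, 1 and 1 for other ATF4 targets, 1 and 1 for the eIF2 genes, 2 and 0 for the ATF6 and XBP1 genes, 0 and 3 for the mitochondrial genes, 0 and 1 for p53 targets and 0 and 1 for glucocorticoid targets. Without GFP replicate 1 or 2, 3 amino acid synthesis genes, 1 transporter and 3 ATF6 and XBP1 genes passed higher. All 6 fibroblast and all 6 macrophage markers passed higher in nSREBP2 versus GFP, and of 12 rod markers 1 passed higher and 0 lower. Their part in the changes above was not tested.

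The *Lrp2* hairpins ask what changes when the endocytic receptor LRP2 is reduced. In sh1 versus ctrl sh 2 of the 10 genes were called higher (*Gdf15* and *Trib3*) and 0 lower, beside 0.449% of the 17801 genes tested called higher. In sh2 versus ctrl sh 2 were called higher (*Gdf15* and *Asns*) and 0 lower, beside 2.98% of the 18089 genes tested. The libraries did not overlap for 4 of the 10 genes with sh1, beside 25.2% of all genes, and for 2 with sh2, beside 36.8%. The median log2FC was 0.28 (sh1) and 0.21 (sh2) over the 10 genes, and -0.01 and 0.01 over all genes. All these calls held in each fit that left out 1 library, and without ctrl sh replicate 1 *Ddit4* was also called, lower, with sh1. The hairpins were also compared directly. In sh2 versus sh1 *Asns* was called higher, beside 3.32% of all genes, and 0 of the 10 were called lower. Against uninjected libraries *Trib3* and *Gdf15* were called higher with sh1 (1.99% of all genes higher) and *Ppp1r15a* lower (4.59% lower). With sh2 *Gdf15*, *Asns* and *Sesn2* were called higher (3.72% of all genes higher) and *Ppp1r15a* lower (4.32% lower).

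The companion lists of the hairpins are read against the adjusted *P* alone, which 3.06% of all genes passed higher and 2.28% lower with sh1, and 8.59% higher and 9.48% lower with sh2. Of the 12 tRNA synthetases 2 passed higher with sh1 and 6 with sh2, and 0 lower. *Sars* was 1.42-fold higher with sh2 (log2FC 0.51 ± 0.06, adjusted *P* = 0.000866). With sh1 its log2FC was 0.33 ± 0.07 (adjusted *P* = 0.0246, and 0.102 without sh1 replicate 3). Of the amino acid synthesis genes 0 passed with sh1 by edgeR or DESeq2 (2 at an unadjusted *P* below 0.05 by edgeR), and 2 passed higher and 0 lower with sh2, *Aldh1l2* (log2FC 0.71 ± 0.11, adjusted *P* = 0.00272) and *Aldh18a1* (log2FC 0.55 ± 0.11, adjusted *P* = 0.00816). Of the transporters 2 passed higher and 0 lower with sh1, among them *Slc7a5*, which imports leucine (log2FC 0.53 ± 0.09, adjusted *P* = 0.0106). With sh2 1 passed higher and 2 lower. Of 11 other ATF4 targets tested, 1 passed higher with sh1, *Sqstm1*, the autophagy receptor p62 (log2FC 0.54 ± 0.06, adjusted *P* = 0.00131). With sh2 3 passed higher, among them *Nupr1* (log2FC 0.75 ± 0.16, adjusted *P* = 0.00934) and the translation inhibitor *Eif4ebp1* (log2FC 0.74 ± 0.15, adjusted *P* = 0.00878), and 2 lower, among them *Vegfa* (log2FC -0.88 ± 0.12, adjusted *P* = 0.00117). Of the 8 mitochondrial genes 2 passed higher and 0 lower with sh1, and 0 higher and 1 lower with sh2. Of the eIF2 genes 0 passed with sh1 by edgeR or DESeq2 (4 at an unadjusted *P* below 0.05 by edgeR), and with sh2 1 passed higher, *Eif2s1*, the subunit of eIF2 that is phosphorylated (log2FC 0.49 ± 0.09, adjusted *P* = 0.00693), and 2 lower. Of the 21 ATF6 and XBP1 genes 1 passed higher with sh1, and 2 higher and 2 lower with sh2. When 1 library was left out, the tRNA synthetases that passed higher numbered 0 to 2 with sh1 (0 without ctrl sh replicate 3, sh1 replicate 1 or sh1 replicate 3, and 1 without sh1 replicate 2) and 2 to 5 with sh2 (2 without sh2 replicate 3, and 3 without ctrl sh replicate 1, ctrl sh replicate 2 or sh2 replicate 2). With sh2 5 of the 10 RPE markers passed lower and 1 higher, and 10 of the 12 rod markers passed higher. With sh1 1 RPE marker passed lower, and 0 of 9 rod markers passed by edgeR. Their part in these counts was not tested.

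Targets of other known inputs of *Gdf15*, *Sesn2* and *Ddit4* also passed the threshold in the hairpin libraries. Of 14 p53 targets 6 passed higher and 0 lower with sh1, and 8 higher and 1 lower with sh2. *Cdkn1a* had a log2FC of 2.30 ± 0.33 with sh1 (adjusted *P* = 0.00460) and of 1.74 ± 0.33 with sh2 (adjusted *P* = 0.00615). *Ccng1* rose from 130 ± 39 CPM with ctrl sh to 333 ± 32 CPM with sh1 (SD, n = 3, log2FC 1.36 ± 0.19, adjusted *P* = 0.00356), and *Zmat3*, which encodes an RNA-binding protein, had a log2FC of 1.32 ± 0.10 with sh2 (adjusted *P* = 8.36e-05). Of 8 glucocorticoid targets 4 passed lower with sh1 and 6 with sh2, and 0 higher. The clock gene *Per1* had a log2FC of -1.25 ± 0.16 with sh1 (adjusted *P* = 0.00316) and of -1.06 ± 0.17 with sh2 (adjusted *P* = 0.00263). The summed level of the 8 genes was 1162, 1388 and 1732 CPM in the ctrl sh libraries, in the same order as *Ddit4*, and 746 to 793 CPM in the sh1 libraries. Of the immediate early genes 1 passed lower with sh1 and 4 with sh2. Without sh1 replicate 1 or 3, 3 p53 targets passed higher and 2 glucocorticoid targets lower with sh1, and without ctrl sh replicate 1 all 8 glucocorticoid targets passed lower with each hairpin. With sh2 8 to 9 p53 targets passed higher when 1 library was left out. The part of these inputs in the levels of *Gdf15*, *Sesn2* and *Ddit4* was not tested.

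In sh2 versus sh1 the adjusted *P* alone was passed higher by 10.2% and lower by 12.3% of all genes. Beside *Asns*, the cystine transporter *Slc7a11* (log2FC 1.91 ± 0.21, adjusted *P* = 0.000196, and 0.0618 with sex held constant) and *Stc2*, a secreted glycoprotein gene (log2FC 1.82 ± 0.27, adjusted *P* = 0.00117), were higher with sh2. *Slc6a9* (log2FC -2.34 ± 0.13, adjusted *P* = 2.33e-06) and *Slc7a5* (log2FC -0.72 ± 0.10, adjusted *P* = 0.000579) were lower. In all, 2 transporters passed higher and 3 lower, 3 other ATF4 targets higher and 3 lower, 3 amino acid synthesis genes higher and 1 lower, and 1 tRNA synthetase higher and 2 lower. Of the mitochondrial genes 5 passed lower and 0 higher, of the eIF2 genes 5 lower and 0 higher, and of the ATF6 and XBP1 genes 2 higher and 4 lower. Of the p53 targets 3 passed each way, of the glucocorticoid targets 2 higher and 1 lower, and of the immediate early genes 1 higher and 0 lower. Of the sh2 libraries 2 were male and all sh1 libraries were female. With sex held constant 20 of the 38 genes named by rule passed, and the counts were 0 higher and 3 lower for transporters, 2 and 3 for other ATF4 targets, 1 and 0 for amino acid synthesis, 0 and 3 for the mitochondrial genes, 0 and 2 for the eIF2 genes, 0 and 3 for the ATF6 and XBP1 genes, 2 and 1 for p53 targets and 0 and 1 for glucocorticoid targets. No tRNA synthetase and no immediate early gene then passed by edgeR (4 and 0 at an unadjusted *P* below 0.05). Cell markers differed between the hairpins without overlap, with the RPE sum at 691 to 1138 CPM in sh2 and 1488 to 2308 CPM in sh1, the rod sum at 84.9 to 440 CPM and 35.4 to 68.3 CPM, the endothelial sum at 991 to 1053 CPM and 1429 to 1521 CPM, and the macrophage sum at 289 to 388 CPM and 207 to 242 CPM. Their part in these counts was not tested.

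**Figure D4:**
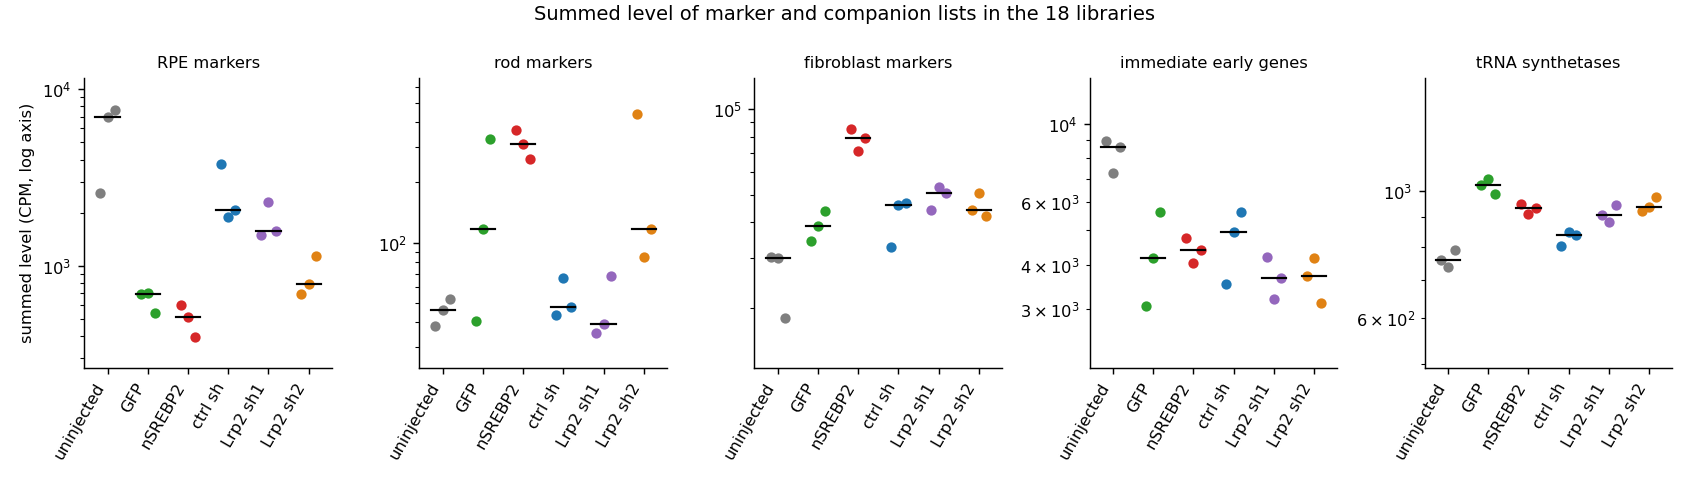
Summed level (CPM, log axes) of 3 marker lists and 2 companion lists in each library (points), with the median of the group (black lines). The tRNA synthetases sum to 736 to 788 CPM in uninjected and 990 to 1049 CPM in GFP libraries. The immediate early genes are highest in uninjected libraries. The RPE markers have the lowest medians in nSREBP2 (range 395 to 596 CPM) and GFP (539 to 698 CPM).

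Across all libraries the mean z score of the 10 genes was highest in GFP (0.774, 1.03 and 1.001). Its lowest values were in ctrl sh (-1.10, -0.511 and -0.217), which overlapped sh1 (0.016, -0.504 and -0.259) and sh2 (-0.224, -0.242 and -0.251). The 5 other genes whose log2 CPM over the 18 libraries was most like this mean, by Pearson's r, were *Glrx2* (r = 0.87), *Atf6* (r = 0.83), *Cyb5r1* (r = 0.79), *Mars* (r = 0.79) and *Jam2* (r = 0.78). The points share 6 groups of 3 libraries, and *Mars* shares exon bases with *Ddit3*, so these values only describe the likeness.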

How the data were processed

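RPE RNA was measured in 18 libraries, grouped by the sample titles. The authors sequenced directional libraries after depletion of ribosomal RNA, mapped the reads to GRCm38 with STAR and deposited whole-number counts per gene without normalization. The annotation and the use of strand are not given in the sources used here. For each of 10 pairs of groups, edgeR 4.0.16 (R 4.3.3) filtered genes with filterByExpr, scaled libraries by TMM and ran its quasi-likelihood test on the deposited counts, with *P* adjusted by Benjamini and Hochberg over all genes. SEs come from the log2FC and the F statistic, and levels are CPM with TMM factors over 18 libraries. Simulated counts were used to test the fit. Nothing says that the mice came from separate litters, so *P*-values measure only the spread between these mice.

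The members and all lists were chosen with earlier results of these data known. Named genes were the members, up to 3 genes of largest change per list, direction and comparison (adjusted *P* under 0.05, average log2 CPM of at least 1), and the 5 genes most like the members. *Hspa5* was added after its values were seen, and *Rpe65*, *Rgr*, *Lrp2* and *Srebf2* as checks. Positions came from GENCODE M21 and promoters from RefSeq. The floor of 3 counts lay at 0.216 to 0.327 CPM. DESeq2 1.42.0, other filters, left-out libraries and sex as a covariate were tried as alternatives.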

Additional observations from a re-analysis of the deposited data

How the results depend on the processing

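DESeq2 1.42.0, its size factors within edgeR and a minimum of 10 counts in every library gave the same number of members called in all 6 comparisons. With sex as a term 2 members were called in nSREBP2 versus GFP (4 without it). With the uninjected libraries as the control 4 were called for sh2 (2 against ctrl sh). With all 18 libraries in one fit 2 were called in ctrl sh versus uninjected (1 in the fit of its own libraries). Leaving out 1 library gave 3 to 6 members in GFP versus uninjected (3 without uninjected replicate 2, GFP replicate 1 or GFP replicate 2) and 0 to 1 in ctrl sh versus uninjected (0 without ctrl sh replicate 2). By the adjusted *P* alone 7 members passed in nSREBP2 versus GFP, 2 higher and 5 lower, beside 12.6% and 8.47% of all genes. In sh2 versus sh1 5 passed, 2 higher and 3 lower, beside 10.2% and 12.3% of all genes. In ctrl sh versus uninjected 4 passed, 1 higher and 3 lower, beside 3.13% and 3.37% of all genes.

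Counts over all genes also moved. GFP versus uninjected had 251 genes called, and 401 by DESeq2, 554 without a filter on low counts, 534 with all 18 libraries, 404 with sex as a term, and 57 to 362 when 1 library was left out (57 without GFP replicate 2, 86 without uninjected replicate 3, 87 without GFP replicate 1, 112 without uninjected replicate 2). Ctrl sh versus uninjected had 426, and 687 without a filter, 746 with all 18 libraries, and 79 to 423 when 1 library was left out (79 without ctrl sh replicate 2, 153 without ctrl sh replicate 3, 175 without uninjected replicate 3). In sh1 versus ctrl sh 177 genes were called, and 110 to 221 when 1 library was left out (110 without sh1 replicate 3, 112 without sh1 replicate 1). In sh2 versus sh1 922 were called, and 613 at a minimum of 10 counts in every library. The adjusted *P* alone gave 3770 (nSREBP2 versus GFP), 949 (sh1 versus ctrl sh), 3268 (sh2 versus ctrl sh), 442 (GFP versus uninjected), 4029 (sh2 versus sh1) and 1157 genes (ctrl sh versus uninjected). The cause of these differences was not tested.

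The replicate numbers were treated as names only. Deviations of libraries with the same number correlated at -0.38 to 0.30, and in no comparison were all 3 above 0.1. With 3 libraries a group, these values cannot show that the numbers carry no pairing. With the replicate block 131 genes were called in ctrl sh versus uninjected in place of 426, and no count of members changed. The sign of the log2FC was the same in 13 other settings for 9 of the 10 members in GFP versus uninjected (all but *Atf4*) and for 7 in nSREBP2 versus GFP (all but *Ddit4*, *Asns* and *Ppp1r15a*). With 3 libraries a group, small changes of *Chac1* and other rare genes are not detectable.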
